A study of Mus musculus with 4 samples.

Results

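Ephrins are membrane-bound ligands and Eph proteins are the receptor tyrosine kinases that bind them, and 10 genes of these families were followed across cell types and between genotypes in single cells of the embryonic mouse cortex. The members are 5 ephrins (Efna3, Efna5, Efnb1, Efnb2 and Efnb3), 4 EphA receptors (Epha3, Epha4, Epha5 and Epha7) and 1 EphB receptor (Ephb1). They were taken by name from the gene rows of the table, 10 of 16600, by a rule that uses no measured value, although earlier results of these data were known when it was set. The table holds 19 ephrin and Eph genes in all, and the other 9 are given by counts further on.

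Ephrin-A ligands are held in the membrane by a lipid anchor and mainly bind EphA receptors, whereas ephrin-B ligands cross the membrane and mainly bind EphB receptors, with Epha4 binding ligands of both kinds. Because ligand and receptor both sit on cell surfaces, they act where cells touch, and contact often makes a growth cone or a migrating cell turn away. In the developing forebrain the families are known for axon guidance, for the sorting and migration of neurons and interneurons, and for the contacts of progenitor cells. Receptors pass the signal to small GTPases such as Rac through adaptors and exchange factors such as Nck1, Ngef, Vav2 and Kalrn, and through the Rac inhibitor Chn1. Ephrin-B ligands can also signal backwards into the cell that carries them.

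The cells were CD24+ CD45- cells sorted from the cortex of C57BL/6J fetuses at E18.5, late in embryonic development. CD24 is a surface marker of young neurons and CD45 marks blood cells. The groups were 2 wild type fetuses (libraries WT3 and WT6) and 2 fetuses with 1 disrupted copy of Setd5 (Setd5+/-, a knockout allele carrying GFP, libraries Het5 and Het9). Setd5 encodes a SET domain chromatin protein linked to intellectual disability. Each fetus gave 1 droplet library that counts transcripts near their 3′ ends with unique molecular identifiers (UMIs). The labels give no sex for the fetuses.

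The genes lie on separate chromosomes, so that no pair of members shares a locus. On GRCm38 (the build also called mm10), with the gene models of GENCODE M21, the ligand genes are Efna3 (chr3:89313899-89322965), Efna5 (chr17:62604184-62881317), Efnb1 (chrX:99136130-99148991), Efnb2 (chr8:8617434-8661242) and Efnb3 (chr11:69554092-69560205). The EphA genes are Epha3 (chr16:63543534-63864175), Epha4 (chr1:77367185-77515088), Epha5 (chr5:84054761-84417382) and Epha7 (chr4:28813131-28967499), and Ephb1 lies at chr9:101922128-102354693. Efna3, Epha5, Epha7 and Ephb1 overlap annotated transcripts on the opposite strand, and Efnb2, Epha3, Epha4 and Ephb1 overlap small or non-coding genes on their own strand. Since the strand setting of the counting is not given in the sources used here, reads of such partners cannot be told apart.

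The sequences before the start sites are printed for the receptor with the highest level in neurons (Epha5), for a ligand higher in excitatory neurons (Efnb2) and for a ligand higher in the Dlx lineage (Efna5), as examples of the members that differ between these lineages. Windows of 250 bases before the start were found in RefSeq (GRCm38.p6) for 9 of the 10 members. Each is read 5′ to 3′ on the strand of the gene, which is the minus strand for these 3 genes, at chr5:84417383-84417632 for Epha5, chr8:8661243-8661492 for Efnb2 and chr17:62881318-62881567 for Efna5. Capitals mark matches, searched on both strands, to the homeodomain core TAATTA, to the GC box GGGCGG, which reads CCGCCC on the other strand, and to the E-box sequences CAGATG (known from proneural factors) and CAGCTG.
Epha5: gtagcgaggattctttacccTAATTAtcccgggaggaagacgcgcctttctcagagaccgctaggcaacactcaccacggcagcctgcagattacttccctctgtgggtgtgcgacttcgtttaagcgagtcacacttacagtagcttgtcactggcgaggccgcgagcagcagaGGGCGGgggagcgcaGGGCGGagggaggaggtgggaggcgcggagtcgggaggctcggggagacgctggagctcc
Efnb2: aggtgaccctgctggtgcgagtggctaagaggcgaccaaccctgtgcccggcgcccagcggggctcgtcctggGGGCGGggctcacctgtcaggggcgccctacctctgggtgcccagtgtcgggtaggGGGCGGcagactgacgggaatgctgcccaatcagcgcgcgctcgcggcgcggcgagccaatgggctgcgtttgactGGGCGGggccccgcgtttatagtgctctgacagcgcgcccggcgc
Efna5: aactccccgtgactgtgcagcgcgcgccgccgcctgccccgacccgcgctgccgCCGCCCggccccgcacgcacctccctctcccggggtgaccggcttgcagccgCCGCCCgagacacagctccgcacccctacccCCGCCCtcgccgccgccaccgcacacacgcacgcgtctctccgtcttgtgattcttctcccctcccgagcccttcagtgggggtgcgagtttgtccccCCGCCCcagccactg
The Epha5 window held 1 TAATTA, which 4.84% of the 32851 windows in the RefSeq table held, and 2 GC boxes, which 32.7% of all windows held at least once. The windows of Efnb2 and Efna5 held 3 and 4 GC boxes. No match to either E-box lay in these 3 windows, against 14.4% of all windows with CAGATG and 13% with CAGCTG. GC content was 62.4% for Epha5, 72% for Efnb2 and 74.8% for Efna5, above the median of 52.4% over all windows. A match describes letters only and is not evidence of binding.

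The 4 libraries held 1445 to 1954 cells and 8205330 to 11742956 UMIs, with medians of 5398 to 5997 UMIs per cell. Before any class was formed, 233 cells were set aside because their cell barcode occurred in 3 or 4 libraries, and 44 further cells shared a barcode between a pair of libraries. In the cells set aside, 5 members (Efnb1, Efnb2, Efnb3, Epha4 and Ephb1) were at 0, and the others had mean levels of at most 0.126 counts per 10000 UMIs. Cells were then placed into neural classes by UMIs of marker genes, none of them a member, which left 5963 cells. Of these classes 12 are described singly, and some excitatory neurons enter the joined classes only. The names stand for these gates. Radial glia had Fabp7 at 73.6 and Slc1a3 at 6.58 counts per 10000. Intermediate progenitors had Neurog2 at 9.20 and Eomes at 7.90, the Lhx6 interneurons had Npy at 4.60, and the striatal gate had Foxp1 at 14.0 and Isl1 at 5.77. Slc1a3, Neurog2 and Eomes are genes of the gates, and Fabp7, Npy, Foxp1 and Isl1 are not. Among markers of other cells, hemoglobin genes summed to 4.15 to 11.3 counts per 10000 in the neural cells of the libraries. The immune, vascular and melanocyte lists each summed to at most 0.091. Cells rich in these same genes had been removed, so low sums follow from the gates. The cells were sorted on CD24, and Cd24a was at 2.55 in radial glia and at 17 or more in excitatory neurons. The part of the sort in the class sizes was not tested, and class sizes were not compared.

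Levels are given as the mean over cells of counts per 10000 UMIs, in the order WT3, WT6, Het5 and Het9, with the mean ± SD over these 4 libraries where one is printed. Tags near the 3′ end are not divided by transcript length, but the capture of each 3′ end can differ, so that levels of different genes are set side by side only as tags found. Classes were compared with limma on log2(level + 0.1) in the same 4 libraries, with the library as a block, and differences are log2 differences with their standard error (SE). P-values were adjusted over all genes tested (Benjamini-Hochberg), and a gene was called at an adjusted p below 0.05. With the pseudocount of 0.1, the difference of a gene near that level is understated.

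Epha5 was the most abundant member and rose along the excitatory lineage. Its level was 2.84, 2.91, 2.75 and 2.67 counts per 10000 in radial glia (2.79 ± 0.106, n = 4), and 5.01, 5.02, 4.30 and 4.64 in intermediate progenitors. It was 10.7, 9.08, 9.55 and 8.97 in newborn excitatory neurons, and 11.9, 11.2, 11.6 and 9.51 in the joined class of excitatory neurons (11.04 ± 1.06, n = 4). The libraries of radial glia, intermediate progenitors and newborn neurons did not overlap, while those of newborn and excitatory neurons did. At least 1 Epha5 UMI was found in 96.0% of excitatory neurons (median 5358 UMIs per cell) and in 39.9% of Dlx-lineage neurons (median 4247), and after thinning each cell to 2000 UMIs in 80.4% and 28.4%. Epha5 encodes a receptor for ephrin-A ligands that is widely expressed by forebrain neurons.

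In the Dlx lineage, which forms inhibitory neurons, Epha5 differed by class. It was 1.52, 0.904, 0.731 and 1.18 in cycling Dlx progenitors, and 1.94, 3.07, 3.27 and 3.13 in Dlx neuroblasts, which carry Dlx and Gad transcripts without Lhx6, Htr3a or Nr2f2. It was 7.69, 8.27, 6.27 and 10.7 in Lhx6 interneurons and 7.01, 9.32, 7.16 and 10.2 in Htr3a or Nr2f2 interneurons. Each of the interneuron libraries lay above each of the neuroblast libraries, and the interneuron classes overlapped with each other. The level and the share of cells with a UMI did not run in parallel. Lhx6 interneurons had a mean of 8.23, close to that of newborn excitatory neurons (9.56), but 47.7% of their cells had an Epha5 UMI against 91.1%. After thinning to 2000 UMIs the shares were 37.6% and 75.9%, so the Lhx6 class held cells with many Epha5 UMIs beside cells with none found. In Htr3a or Nr2f2 interneurons the thinned share was 53.7%.

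Epha4, the receptor that accepts both ephrin-A and ephrin-B ligands, had its highest level in Lhx6 interneurons. There it was 4.61, 5.32, 5.69 and 6.75 counts per 10000 (5.59 ± 0.89, n = 4), above every library of every other class with at least 20 cells in each library. Levels of 3.40, 3.35, 2.95 and 2.95 were found in Htr3a or Nr2f2 interneurons, and of 3.06, 2.98, 3.33 and 3.22 in intermediate progenitors. The lowest mean among these classes was in deep-layer neurons, at 1.73, 1.75, 1.58 and 1.80. The ranges of radial glia (lowest library 1.526) and of cycling pallial progenitors (lowest library 1.795) overlapped with theirs. The deep-layer gate takes any UMI of Bcl11b or Fezf2, and the name stands for this gate. Cux2 and Bhlhe22, which are outside it, were at 0.912 and 2.52, close to the joined class of excitatory neurons (0.977 and 2.495). Epha4 transcripts were found in cells of each class, with 50.3% of deep-layer neurons and 78.4% of intermediate progenitors holding a UMI.

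Epha3 and Epha4 differed in opposite directions between the neuron lineages. Epha3 was low in radial glia, at 0.288, 0.372, 0.507 and 0.368, and reached 2.38, 2.57, 2.19 and 2.097 in intermediate progenitors and 3.38, 3.02, 3.18 and 3.22 in newborn excitatory neurons. The libraries of these 3 classes did not overlap. In Dlx neuroblasts Epha3 was 0.676, 0.557, 0.709 and 1.003, and in Lhx6 interneurons it averaged 0.642. Epha3 encodes a receptor that binds ephrin-A ligands, Efna5 among them.

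The remaining receptors were sparse. Among classes with at least 20 cells in each library, Epha7, another receptor for ephrin-A ligands, was highest in newborn excitatory neurons at 0.666, 0.502, 0.478 and 0.475, and lowest in cycling Dlx progenitors with a mean of 0.0466. Ephb1, a receptor for ephrin-B ligands known from the midline crossing of retinal axons, was at its highest among the same classes in radial glia, at 0.811, 0.833, 0.706 and 0.455, with a mean of 0.309 in cycling pallial progenitors. Ephb1 in radial glia lay above the libraries of every other class with at least 20 cells in each library. In the radial glia 28.3% of cells held an Ephb1 UMI (median 6510 UMIs), against 1.75% of cycling Dlx progenitors.

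**Figure D1:**
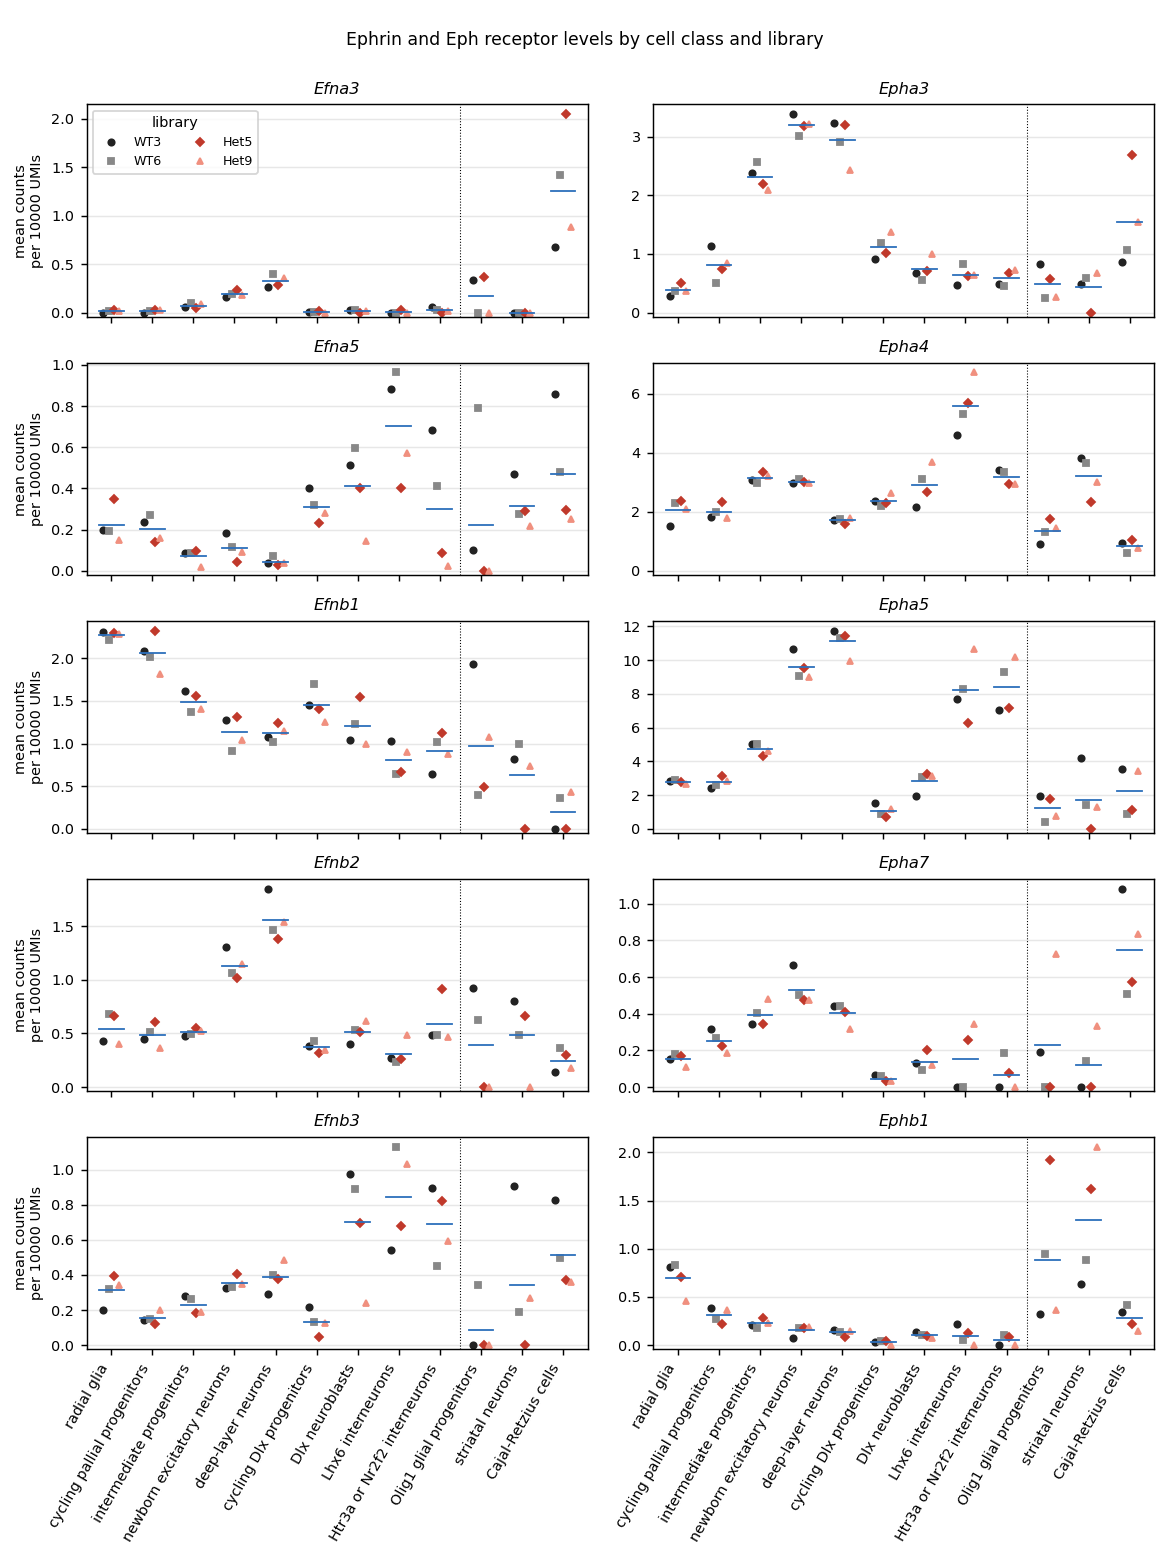
Level of each member (mean counts per 10000 UMIs over the cells of a class, y axis, a scale of its own in each panel) in 12 classes (x axis). Symbols are the 4 libraries (WT3, WT6, Het5 and Het9) and the line is their mean, and the 3 classes right of the dotted line have fewer than 20 cells in some library. Epha4 is highest in Lhx6 interneurons (mean 5.59), Ephb1 in radial glia among the classes left of the line (mean 0.701), and Efnb1 has means of 2.27 in radial glia and 1.12 in deep-layer neurons.

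The ephrin-B ligands divided among the cell types. Efnb1, an X-linked ligand, had its highest mean in radial glia, at 2.304, 2.21, 2.298 and 2.28 counts per 10000 (2.27 ± 0.044, n = 4), and the range of cycling pallial progenitors (mean 2.06) overlapped with it. Efnb1 had means of 1.49 in intermediate progenitors, 1.14 in newborn neurons and 1.07 in excitatory neurons. Efnb2 went the other way, from 0.474, 0.497, 0.556 and 0.518 in intermediate progenitors to 1.31, 1.06, 1.01 and 1.15 in newborn excitatory neurons and 1.77, 1.68, 1.55 and 1.52 in excitatory neurons. The libraries of these 3 classes did not overlap for Efnb2. Efnb3 was highest in the Dlx lineage outside the cycling class, at 0.867, 0.853, 0.720 and 0.456 in Dlx-lineage neurons. It was low in cycling Dlx progenitors, at 0.219, 0.132, 0.0473 and 0.126. Summed over the 3 genes, ephrin-B transcripts averaged 3.10 in excitatory neurons, 3.13 in radial glia and 2.26 in Dlx-lineage neurons, so the sum varied less than the single genes.

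Over all neural cells the ephrin-A members had the lowest mean levels of the 5 ligand members (0.124 for Efna3 and 0.195 for Efna5), and each was higher in a different neuron lineage. Efna3 was 0.232, 0.407, 0.285 and 0.349 in excitatory neurons (205 UMIs) and 0.0241, 0.0221, 0.0062 and 0.0144 in Dlx-lineage neurons (12 UMIs), with a UMI in 15.1% and 1.06% of cells. Efna5 was 0.0354, 0.0814, 0.0291 and 0.0249 in excitatory neurons (25 UMIs) and 0.623, 0.634, 0.332 and 0.177 in Dlx-lineage neurons (236 UMIs), with a UMI in 1.90% and 16.2% of cells. No background share was estimated, so the lower share of each gene is not read as expression. The summed level of the 2 genes was 0.361 in excitatory neurons and 0.458 in Dlx-lineage neurons, far below that of the 4 EphA receptors (16.1 and 9.39). With the other ephrin-A genes of the table included (5 genes), the sum was 1.08 and 1.07, nearly even between the lineages.

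The classes were ordered by level for each gene, over the 9 single classes with at least 20 cells in every library, and neighbours in the order were compared by the ranges of their libraries. Of the 8 neighbouring pairs per gene, none stood apart for Efna5 and Efnb3, 1 for Efnb1, Epha3, Epha4 and Ephb1, 2 for Efna3 and Efnb2, and 3 for Epha5 and Epha7. In the other 66 of the 80 pairs the ranges overlapped, although in 8 of them each library was higher in the same class, as for Epha5 in deep-layer over newborn excitatory neurons. The ratio of the highest to the lowest class mean was 2.802 for Efnb1 and 3.26 for Epha4, 10.3 for Epha5, 15.9 for Efna5 and 24.1 for Ephb1, whose lowest class held 16 UMIs. No ratio is given for Efna3, since its lowest class, the Lhx6 interneurons, held 1 UMI.

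The comparison of excitatory neurons with Dlx-lineage neurons asks which ligands and receptors part the 2 neuron lineages. Of the 10 members, 5 were called higher in excitatory neurons and 3 lower, where 21% and 16.5% of the 7803 genes tested were called higher and lower. The higher members were Epha3 with a log2 difference of 2.04 (SE 0.094, adjusted p = 5.33e-18), Efna3 with 1.83 (SE 0.157, adjusted p = 2.54e-11), Efnb2 with 1.57 (SE 0.104, adjusted p = 4.49e-14), Epha7 with 1.16 (SE 0.155, adjusted p = 2.48e-07) and Epha5 with 1.11 (SE 0.077, adjusted p = 1.35e-13). Thus 3 EphA receptors and 1 ligand of each type were on the excitatory side. The lower members were Efna5 with -1.83 (SE 0.169, adjusted p = 1.26e-10), Epha4 with -1.09 (SE 0.076, adjusted p = 1.72e-13) and Efnb3 with -0.69 (SE 0.137, adjusted p = 1.33e-04). Ephb1 (0.26, adjusted p = 0.237) and Efnb1 (0.02, adjusted p = 0.864) were not called. The median difference of the members was 0.686, and that of all genes tested 0.0313. These 8 calls held under each alternative and without each library.

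**Figure D2:**
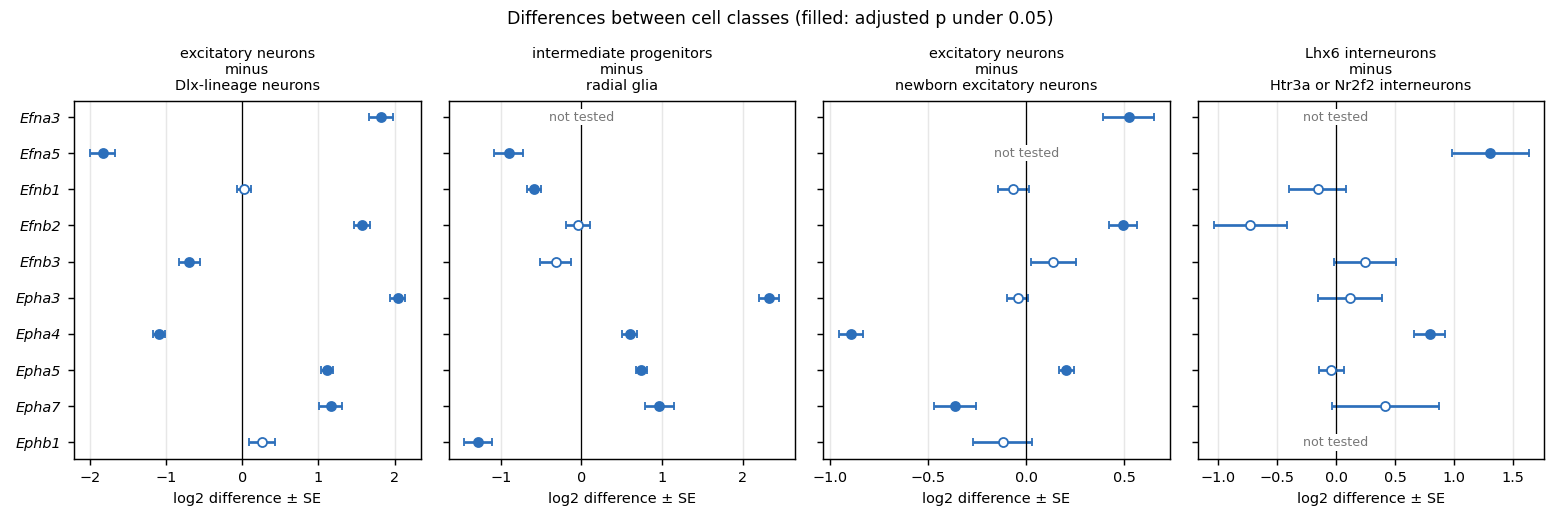
Log2 difference ± SE (x axis, limma on log2(level + 0.1), 4 libraries per class) of each member (y axis) in 4 comparisons of classes. Filled points have an adjusted p below 0.05. In excitatory minus Dlx-lineage neurons, 5 members lie right of 0 and 3 left of it among the filled points, from Epha3 at 2.04 to Efna5 at -1.83.

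Along the excitatory lineage the members changed at successive steps. Between radial glia, the stem cells, and intermediate progenitors, their neurogenic daughters, 4 of 9 members tested were called higher in intermediate progenitors and 3 lower (19.8% and 24.4% of the 8146 genes tested). The higher ones were the EphA receptors, Epha3 by 2.33 (SE 0.128, adjusted p = 9.19e-11), Epha7 by 0.97 (SE 0.179, adjusted p = 2.65e-04), Epha5 by 0.74 (SE 0.069, adjusted p = 9.55e-08) and Epha4 by 0.60 (SE 0.094, adjusted p = 4.41e-05). All 4 EphA members were thus higher in intermediate progenitors. The lower ones were Ephb1 with -1.28 (SE 0.174, adjusted p = 1e-05), Efna5 with -0.90 (SE 0.184, adjusted p = 6.18e-04) and Efnb1 with -0.58 (SE 0.087, adjusted p = 3.04e-05). The Efna5 call was lost with cells thinned to 2000 UMIs (-0.79, adjusted p = 0.115). Efnb3 had -0.32 (adjusted p = 0.199) and was called without WT3 (-0.54, adjusted p = 0.0236).

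From newborn to excitatory neurons, 3 of 9 members were called higher and 2 lower (9.95% and 8.35% of 7758 genes). Efnb2 had a difference of 0.49 (SE 0.072, adjusted p = 1.88e-07), Efna3 of 0.52 (SE 0.129, adjusted p = 0.00182) and Epha5 of 0.20 (SE 0.0375, adjusted p = 2.21e-05). Epha4 had -0.89 (SE 0.060, adjusted p = 7.01e-19) and Epha7 -0.36 (SE 0.108, adjusted p = 0.0107). The EphA receptors thus parted at this step, with Epha4 and Epha7 lower, Epha5 slightly higher, and Epha3 at -0.04 (adjusted p = 0.663). The calls of Efna3 and Epha7 were lost with thinned cells (0.36 and -0.26, adjusted p = 0.348 and 0.473), and that of Epha7 also without WT3 (-0.29, adjusted p = 0.106).

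Taken from end to end, radial glia against excitatory neurons, 9 of the 10 members were called, 4 higher in radial glia and 5 lower, where 29% and 28.5% of 8248 genes were called. Ephb1 (1.77, SE 0.19, adjusted p = 3.92e-08), Efna5 (1.16, SE 0.20, adjusted p = 4.01e-05) and Efnb1 (1.02, SE 0.095, adjusted p = 3.98e-09) were higher in radial glia. Epha3 (-2.74, SE 0.116, adjusted p = 3.57e-15) and Epha5 (-1.94, SE 0.068, adjusted p = 1.21e-16) were lower there, together with Efna3 (-1.83), Efnb2 (-1.45) and Epha7 (-0.96). Epha4 was called higher in radial glia by 0.35 (SE 0.109, adjusted p = 0.0087), a call lost without WT6 (0.30, adjusted p = 0.0658) or Het5 (0.26, adjusted p = 0.106).

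Within the Dlx lineage, 2 of 8 members parted Lhx6 interneurons, which include those of somatostatin type, from Htr3a or Nr2f2 interneurons, with 1.23% of 7633 genes called higher and 1.09% lower. Epha4 was higher in the Lhx6 class by 0.79 (SE 0.133, adjusted p = 2.68e-05). Efna5 was 0.884, 0.963, 0.402 and 0.571 in the Lhx6 class and 0.684, 0.413, 0.0863 and 0.0251 in the other, a difference of 1.31 (SE 0.326, adjusted p = 0.0108). The ranges of Efna5 overlapped between the classes, although each library was higher in its Lhx6 cells. The Efna5 call was lost without Het9 (0.94, adjusted p = 0.153) and in 4 other settings. Epha5 showed no difference that could be called (-0.04, adjusted p = 0.953).

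Cells in the cycling gates were compared with neighbouring classes outside them, which are not shown to be resting. In cycling Dlx progenitors against Dlx neuroblasts, 1 of 7 members was called higher and 4 lower, with 15.5% and 18% of 7631 genes called. Efnb3 (-1.72, SE 0.202, adjusted p = 2.89e-08) and Epha5 (-1.34, SE 0.145, adjusted p = 5.52e-09) were lower in cycling cells and Epha3 was higher (0.56, SE 0.119, adjusted p = 3.37e-04). The smaller differences of Epha4 (-0.26, adjusted p = 0.0252) and Efnb2 (-0.38, adjusted p = 0.0476) did not hold in each setting. With UMIs summed per class they were -0.05 and -0.26 (adjusted p = 0.725 and 0.188), and under stricter gates -0.08 and -0.27 (adjusted p = 0.534 and 0.193). With thinned cells they were -0.16 and -0.31 (adjusted p = 0.387 and 0.363). They were also lost without WT6 (-0.19 and -0.43, adjusted p = 0.223 and 0.0986), without Het5 (-0.28 and -0.33, adjusted p = 0.0517 and 0.164) or without Het9 (-0.19 and -0.29, adjusted p = 0.142 and 0.196). Conversely, Efnb1 (0.27, adjusted p = 0.0532) was called with UMIs summed per class (0.28, adjusted p = 0.0359) and without Het5 (0.40, adjusted p = 0.011). Efna5 (-0.24, adjusted p = 0.332) was called without Het9 (-0.54, adjusted p = 0.0122).

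In cycling pallial progenitors against radial glia, 1 of 9 members was called higher and 2 lower, with 10.6% and 9.01% of 8217 genes called. Ephb1 was lower in cycling cells (-0.96, SE 0.195, adjusted p = 0.00135) and Epha3 higher (0.88, SE 0.196, adjusted p = 0.00297). Epha3 was thus the member called higher in the cycling class of both lineages. In the pallial lineage its difference with thinned cells was 0.87 (SE 0.344, adjusted p = 0.119). The cycling pallial gate takes cells with either the pallial or the glial sum largest, so it can mix lineage stages. Neurog2 was at 2.78 and Fabp7 at 37.5 in this class, against 0.701 and 73.6 in radial glia. The part of this mixture in the differences was not tested. Efnb3 was lower (-0.70, SE 0.211, adjusted p = 0.0247), a call lost without WT6 (-0.68, adjusted p = 0.0913) or Het5 (-0.54, adjusted p = 0.184).

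Dlx neuroblasts were not uniform in these genes. After the values had been seen, they were divided by at least 1 UMI of Zic1 or Zic4, transcription factors known from septal and olfactory interneuron lineages, which left 49, 70, 25 and 3 cells with Zic UMIs. This is given as a description, without a test. Efnb3 was 1.79, 2.09, 1.77 and 0.828 in cells with Zic UMIs and 0.562, 0.402, 0.370 and 0.228 in those without, so it was higher with Zic UMIs in each library, although the value of Het9 rests on 1 UMI. Epha4 was 0.759, 0.488, 0.659 and 1.66 with Zic UMIs and 2.88, 4.17, 3.28 and 3.72 without. Epha5 was likewise lower with Zic UMIs, at 0.833, 0.681, 0.976 and 0.415 against 2.51, 4.04, 3.97 and 3.20. Efna5 was 0.686, 1.05, 0.685 and 0 with Zic UMIs and 0.424, 0.411, 0.317 and 0.147 without, higher with them in WT3, WT6 and Het5, and not found in the 3 such cells of Het9.

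The smallest classes showed further patterns at low depth. Striatal neurons, gated on Ebf1, held 14, 39, 8 and 16 cells and had Ephb1 at 0.630, 0.882, 1.62 and 2.06 from 29 UMIs. Against Dlx neuroblasts Ephb1 was called higher by 2.65 (SE 0.499, adjusted p = 1.80e-04), where 2.07% of 7675 genes were called higher and 4.39% lower and the median of all genes was -0.11. Epha5 was 4.22, 1.41, 0 and 1.30 in striatal neurons, and its difference of -1.57 (SE 0.416, adjusted p = 0.0111) rested on the 8 cells of Het5, without which it was -0.40 (adjusted p = 0.404). Efnb1 (-1.26, adjusted p = 0.0785) was called without WT3 (-1.57, adjusted p = 0.0207) or Het9 (-1.55, adjusted p = 0.0291). Cajal-Retzius cells, early neurons that secrete reelin, numbered 42 and were not tested. They had Efna3 at 0.678, 1.42, 2.05 and 0.881, above each library of the excitatory neurons, and Epha7 at 1.08, 0.510, 0.575 and 0.833. No Efna3 UMI was found in 77 striatal neurons, which allows a share of up to 3.9% of cells with a UMI (3 counts, counting error only).

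The make-up of the EphA receptors is given as shares, without a test. Of the summed level of the 4 EphA members, Epha5 made up 52.1% in radial glia (mean of the libraries), 44.7% in intermediate progenitors, 58.6% in newborn neurons and 68.5% in excitatory neurons. The share of Epha4 was 38.1%, 29.8%, 18.54% and 9.84% in the same classes. Epha3 had 7.07% in radial glia and 21.8% in intermediate progenitors. In cycling Dlx progenitors Epha4 had the largest share with 51.4%, in Dlx neuroblasts Epha4 (43.7%) and Epha5 (43.0%) were nearly even, and in Lhx6 interneurons Epha5 had 56.1% and Epha4 38.5%. The summed level was 5.39 in radial glia and 4.62 in cycling Dlx progenitors, 16.3 in newborn and 16.1 in excitatory neurons, and 14.6 in Lhx6 interneurons. These shares count 3′ tags and depend on how each gene's 3′ end was captured.

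**Figure D3:**
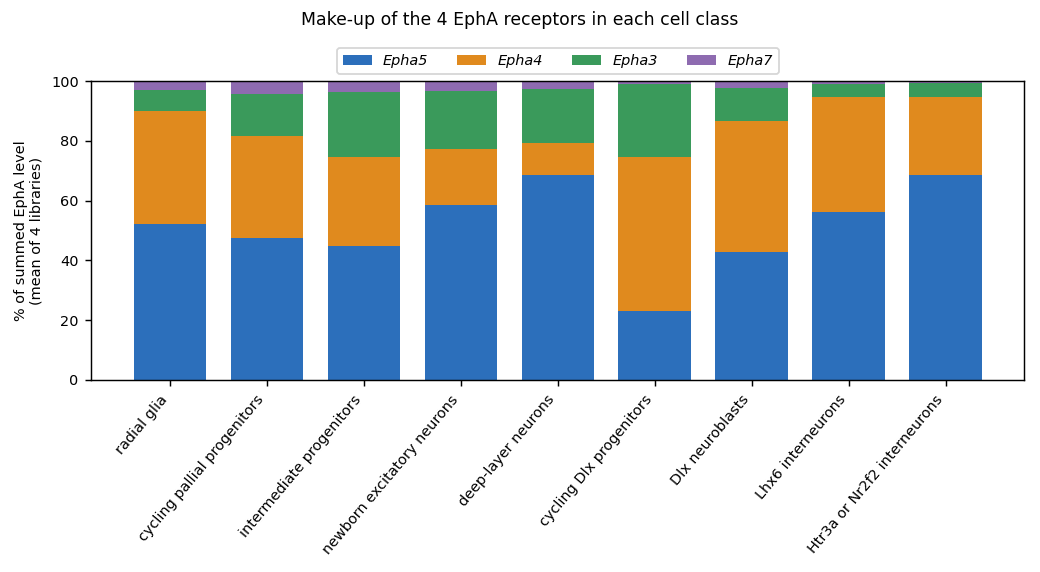
Share of each of the 4 EphA members in their summed level (y axis, percent, mean of the 4 libraries) in 9 classes (x axis). Epha5 takes 68.7% in deep-layer neurons and Epha4 takes 10.7%, while Epha4 takes 51.4% in cycling Dlx progenitors.

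Of 12 other ephrin and Eph genes listed, 9 were in the table (Epha1, Epha2 and Epha6 were not analysed here), and at most 4 passed the filter in a comparison. Between excitatory and Dlx-lineage neurons, 2 of 4 were called higher in excitatory neurons, Ephb6 by 1.34 (adjusted p = 7.92e-09) and Efna4 by 0.65 (adjusted p = 7.26e-04). Ephb6 encodes a receptor without kinase activity, and it was also higher in intermediate progenitors than in radial glia (1.32). Over all neural cells the levels were 0.502 for Ephb2, 0.398 for Efna2, 0.249 for Efna4 and 0.188 for Ephb6. A list of 30 genes that act downstream of Eph receptors or ephrins, all in the table, was called in 6 higher and 7 lower of 25 tested between excitatory and Dlx-lineage neurons, and in 5 higher and 11 lower of 22 between radial glia and excitatory neurons. The shares of all genes were 21% and 16.5% in the first comparison and 29% and 28.5% in the second. Chn1, which links Epha4 to Rac, was higher in excitatory than in Dlx-lineage neurons by 0.51 and lower in radial glia by -1.98. Kalrn, a Rac exchange factor, had 0.65 and -1.30 in these comparisons, and Pak1, a Rac effector, -2.06 in the second. Nck1, an adaptor, went the other way with -1.30 and 1.42, as did Rhoa with -0.64 and 1.47. From newborn to excitatory neurons 4 of 24 were called higher and none lower, against 9.95% and 8.35% of all genes. None of the list was called between striatal neurons and Dlx neuroblasts or between the interneuron classes, where 6 of 25 and 4 of 26 had an unadjusted p below 0.05 by limma, against 18.3% and 10.9% of all genes.

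The genes with the most similar pattern were sought for the 5 members with a level of at least 0.5 over all neural cells, by Pearson's r of log2(level + 0.1) over 36 values (9 classes in 4 libraries) and 4756 genes. The values share libraries and depth, so r is a description. Nearest to Epha3 were Bcl7a (0.926), Lrrc16b (0.911) and Ttc28 (0.906). Nearest to Efnb2 were Igsf3 (0.886), Nfasc (0.878), which encodes an adhesion protein of axons, and Gria2 (0.871), a glutamate receptor subunit. Nearest to Efnb1 were Impdh2 (0.896), Higd1a (0.879) and Fabp7 (0.875), a marker of radial glia. Nearest to Epha5 were Atxn10 (0.888), Eif4a2 (0.868) and Celf2 (0.866). The highest r was lower for Epha4 (Vgll4, 0.809). Among members, r was highest between Efna3 and Efnb2 (0.843) and lowest between Efna5 and Efnb2 (-0.64).

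Whether single cells held a ligand together with an EphA receptor was counted in cells thinned to 2000 UMIs. Of the 80 Dlx-lineage neurons with an Efna5 UMI, 3.75% had Epha3, 21.3% Epha5 and 33.8% Epha4, against 12.5%, 29.0% and 38.7% of the 909 without. Of the 81 such neurons with an Efnb2 UMI, 18.52% had Epha3, 37.04% Epha5 and 48.15% Epha4, against 11.2%, 27.6% and 37.4% of the 908 without. Of the 282 excitatory neurons with an Efnb2 UMI, 27.3% had Epha4, which takes ephrin-B ligands too, against 24.3% of those without, and 83.0% against 79.6% had Epha5. These shares pool the cells of 4 libraries, which differed in their Efna5 levels. The cells of a library are not replicates, and the shares were not tested.

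Genotype was compared within each class, with the fetus as the replicate. Setd5 was checked first. Over all neural cells its level was 1.21 in WT3, 1.08 in WT6, 0.526 in Het5 and 0.565 in Het9 (difference Het minus WT -0.95, SE 0.078, adjusted p = 0.00369), which fits the labels. Xist, expressed from the inactive X chromosome of females, was 21.3 and 21.8 in the WT libraries and at most 0.0090 in the Het libraries, and the Y-linked Ddx3y was at most 0.00066 and 0.489 or more. Both WT libraries thus show a female and both Het libraries a male pattern, so genotype and sex cannot be told apart in any value that follows, including that of the X-linked Efnb1. With 2 libraries against 2, an exact permutation test of a single value cannot go below p = 0.333.

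No member was called between genotypes by limma in any of 12 comparisons (103 tests of members, of which 14 had an unadjusted p below 0.05, 6 of them for Efna5 and 5 for Efnb3). These were 13.6% of the tests of members, against 4.96% of the tests of all genes in the same comparisons, which share cells and libraries. Few genes were called at all. They were 0.0998% of genes over all neural cells, 0.142% in excitatory and 0.131% in Dlx-lineage neurons, 0.0612% in radial glia, 0.0869% in cycling pallial progenitors, 0.169% in intermediate progenitors and 0.116% in newborn neurons. In the other single classes they were 0.142% in deep-layer neurons, 0.0942% in cycling Dlx progenitors, 0.0661% in Dlx neuroblasts, 0.0397% in Lhx6 and 0.145% in Htr3a or Nr2f2 interneurons. A test of whether the genotype difference itself differed between Dlx-lineage and excitatory neurons called 0% of 7803 genes (450 with an unadjusted p below 0.05).

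Over all neural cells, the libraries of both genotypes overlapped for 8 members. Epha5 was 6.54, 5.58, 5.97 and 6.28 (difference 0.02, SE 0.078, adjusted p = 0.999), Epha4 was 2.48, 2.70, 2.64 and 2.70, and Epha3 was 2.04, 1.72, 1.99 and 2.05. Efnb1, the X-linked member, was 1.32, 1.30, 1.47 and 1.21 (difference 0.02, SE 0.0907, adjusted p = 0.999). For Efnb1 the lowest and the highest library were both Het. Libraries of the genotypes did not overlap for 2 of 10 members over all neural cells, for 3 of 9 in excitatory neurons and for 5 of 8 in Dlx-lineage neurons, where 32.6%, 32.3% and 34% of all genes tested did not overlap. In excitatory neurons these were Efnb1, higher in Het, and Efnb2 and Epha7, lower. In Dlx-lineage neurons Efnb2, Epha3 and Epha7 were higher in Het, and Efna5 and Efnb3 lower.

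Efnb2 and Epha7 stood apart without a call in both neuron lineages. In excitatory neurons Efnb2 was 1.77 and 1.68 in WT and 1.55 and 1.52 in Het (-0.16, SE 0.105, adjusted p = 0.997), and Epha7 was 0.416 and 0.433 in WT and 0.373 and 0.329 in Het (-0.22, SE 0.165, adjusted p = 0.997). In Dlx-lineage neurons the same genes had the opposite sign. There Efnb2 was 0.386 and 0.462 in WT and 0.534 and 0.556 in Het (0.30, SE 0.179, adjusted p = 0.939), and Epha7 was 0.0799 and 0.0918 in WT and 0.190 and 0.124 in Het (0.46, SE 0.237, adjusted p = 0.923), from 10, 19, 14 and 8 UMIs. Within these neurons the Epha7 UMIs numbered 0, 0, 5 and 3 in Lhx6 interneurons (unadjusted p = 0.00516 by limma, adjusted p = 0.985) and 0, 7, 2 and 0 in Htr3a or Nr2f2 interneurons, where the mean level was lower in Het (0.0385 against 0.0917). The test of the difference between lineages gave 0.67 for Epha7 (SE 0.221, unadjusted p = 0.0159 by limma, adjusted p = 0.853) and 0.47 for Efnb2 (SE 0.231, adjusted p = 0.866), so neither was called. Epha5 in Dlx-lineage neurons, at 4.02, 5.31, 4.92 and 6.14, overlapped between genotypes.

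Efna5 had the largest difference of the members over all neural cells. It was 0.256 and 0.276 in the WT and 0.146 and 0.101 in the Het libraries, a difference of -0.72 (SE 0.112, adjusted p = 0.15, over the alternatives 0.0627 to 0.716). In Dlx-lineage neurons, which held 236 of its 657 UMIs, it was 0.623 and 0.634 in WT and 0.332 and 0.177 in Het, from 70, 116, 37 and 13 UMIs. Both Het libraries lay below both WT libraries there, by -1.07 on the log2 scale (SE 0.221, adjusted p = 0.107). The difference was called under stricter gates (-1.27, adjusted p = 0.000262) and without Het5 (-1.39, adjusted p = 0.0323), and without Het9 it was -0.75 (adjusted p = 0.656). Over all alternatives it lay between -1.39 and -0.38, the latter with a pseudocount of 1, and its adjusted p between 0.000262 and 0.999. In Htr3a or Nr2f2 interneurons it was -2.06 (SE 0.502, adjusted p = 0.0896) from 12, 16, 3 and 1 UMIs, in Dlx neuroblasts -0.90 (adjusted p = 0.746) and in Lhx6 interneurons -0.82 (adjusted p = 0.985). Over the alternatives the differences in these classes, in this order, lay between -3.22 and -0.55, -1.43 and -0.30, and -1.16 and -0.37. In radial glia the difference was 0.17 (adjusted p = 0.981). Of the 9 comparisons in which Efna5 was tested, 8 had a lower value in Het, but these comparisons share cells or libraries.

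Efnb3 was 0.387 and 0.418 in the WT and 0.322 and 0.325 in the Het libraries over all neural cells (-0.25, SE 0.077, adjusted p = 0.913). In Dlx neuroblasts it was 0.975 and 0.891 in WT and 0.696 and 0.243 in Het (-0.98, SE 0.307, adjusted p = 0.678). Over the alternatives this difference lay between -1.59 and -0.37. In Lhx6 interneurons Efnb3 was 0.543, 1.13, 0.677 and 1.03, where the genotypes overlapped. Of 12 comparisons, 5 had a lower Efnb3 value in Het, and it was higher in Het in radial glia (difference 0.40, adjusted p = 0.967) and deep-layer neurons (0.25, adjusted p = 0.989), without a call. Het9 was the lowest library in the neuroblasts for both ligands. In that library 2.52% of Dlx neuroblasts held a Zic1 or Zic4 UMI, against 33.8%, 28.9% and 23.4% in WT3, WT6 and Het5, and both ligands were lower in Het9 than in the other libraries also among the cells without Zic UMIs (0.147 for Efna5 and 0.228 for Efnb3). The part of this share in the genotype differences was not tested. Between lineages the genotype difference differed by -0.77 for Efna5 (SE 0.264, unadjusted p = 0.0195 by limma, adjusted p = 0.853) and by -0.61 for Efnb3 (SE 0.287, adjusted p = 0.863). The study named Efna5 as changed in 1 of its clusters on these same fetuses, so its direction here is not independent evidence.

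**Figure D4:**
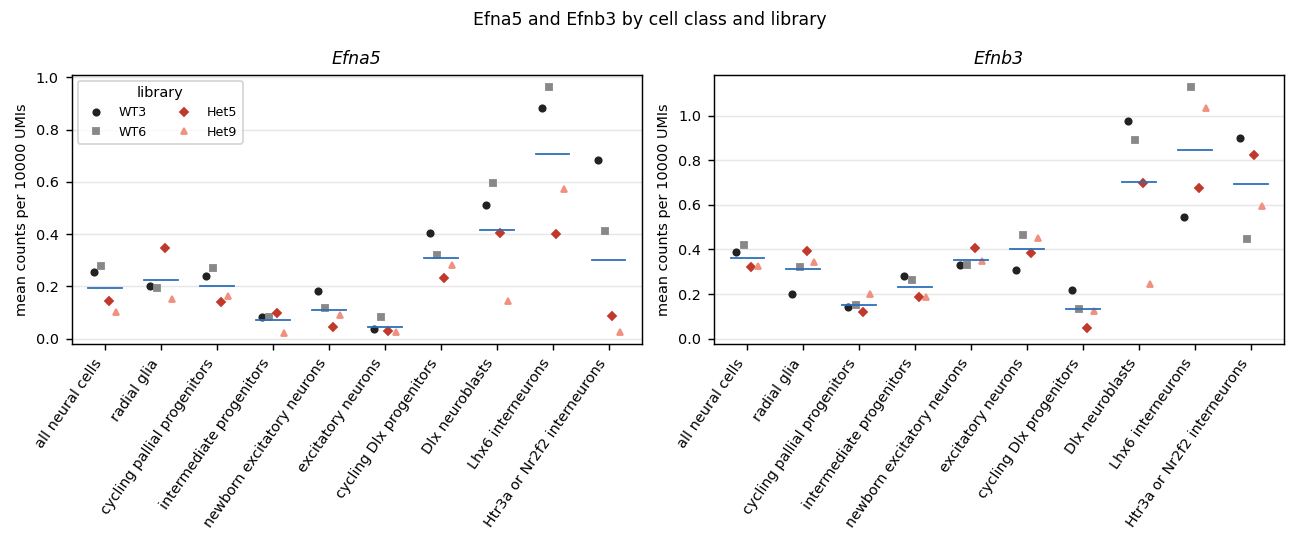
Levels of Efna5 and Efnb3 (mean counts per 10000 UMIs, y axes) in 10 classes (x axis), with 1 symbol for each library. In Dlx neuroblasts Efna5 is at 0.513 and 0.597 in WT3 and WT6 and at 0.403 and 0.143 in Het5 and Het9, and in Lhx6 interneurons the libraries of the genotypes overlap for Efnb3.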

How the data were processed

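RNA of single CD24+ CD45- cells was sequenced from 2 WT and 2 Setd5+/- fetuses, with 1 library per fetus. The authors deposited 1 table in natural log units, where a value is ln(1 + counts per 10000 UMIs), made with mm10, Cell Ranger 2.1 and Seurat 2.3.0 according to the submitters' processing notes. Any filter on cells, annotation or strand setting is not given in the sources used here. There were 6562 cells, each with 1258 to 14996 UMIs, and 16600 genes, of which 28 had no UMI. Whole UMIs were recovered for 100% of the 14848520 values above 0 (tolerance 0.001), so the depth of each cell is known. Prefixes of cell names give the genotype and no replicate number of the labels. Other data of the study were not used here, and 1 planned comparison of excitatory neurons is not reported here, for a reason unrelated to its values.

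Cells were gated by UMIs of marker genes. Sums of 6 Dlx and Gad genes and of 5 pallial genes were divided by 3, and a sum of 6 glial genes by 5, and the largest had to reach 1. Removed were 191 mixed cells, 107 with no lineage, 35 red cells, 27 immune, 3 vascular and 3 melanocyte cells, and 233 with a shared barcode. Cycling cells had at least 4 UMIs of 7 cell cycle genes. Excitatory neurons join all pallial cells outside the cycling, intermediate progenitor and newborn gates, and Dlx-lineage neurons join neuroblasts and both interneuron classes. Scrublet called 64 cells (0.975%) doublets, which were kept. Per library and class, the mean counts per 10000 over cells was taken, and limma (lmFit, eBayes with trend) was run on log2(mean + 0.1) for genes with a mean of at least 0.1, two-sided, called at a Benjamini-Hochberg adjusted p below 0.05. Genotype was tested in classes with at least 20 cells in every library. No count model was fitted. Whether the fetuses came from separate litters is not stated. P-values rest on the spread between these libraries, which limma draws toward that of genes with a similar level. They therefore do not measure the spread of the single gene alone.

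The members and the gene lists were chosen with earlier results of these data known. The genes named are the 10 members, the other ephrin and Eph genes, 30 downstream genes, the 3 genes most similar to each member with a level of at least 0.5, Setd5, sex genes and markers. The division of neuroblasts by Zic1 or Zic4, and the mean with classes weighted alike, were added after seeing the data. Alternatives were pseudocounts of 0.01 and 1, no filter, UMIs summed per class, stricter gates, cells thinned to 2000 UMIs, doublets left out, each library left out, all cells kept (genotype) and no library block (classes). The software was Python 3.11.15 (numpy 2.4.6, pandas 2.3.3, scipy 1.17.1, scanpy 1.11.5, matplotlib 3.10.9) and R 4.3.3 (limma 3.58.1).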

Additional observations from a re-analysis of the deposited data

How the results depend on the processing

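Of 41 differences of single members that were called, no alternative turned the direction, and 451 of their 492 values under alternatives stayed called. Of 43 that were not called, 9 of 501 values were called. By setting, the number of members called moved by over 1.5 times as follows. With cells thinned to 2000 UMIs it was 3 in place of 5 between excitatory and newborn neurons, 1 in place of 3 between cycling pallial progenitors and radial glia, and 1 in place of 2 for striatal neurons and for Lhx6 interneurons. Fewer cells and UMIs enter there. With a pseudocount of 0.01, no filter or no library block it was also 1 in place of 2 for striatal neurons and for Lhx6 interneurons, and for striatal neurons also with UMIs summed or stricter gates. Between cycling Dlx progenitors and neuroblasts it was 3 in place of 5 under stricter gates or without the library block. Stricter gates gave 1 in place of 0 between genotypes in Dlx-lineage neurons. Among smaller moves it was 6 to 8 for intermediate progenitors against radial glia (7 as reported), and 4 in place of 3 for cycling pallial progenitors under stricter gates, where Epha7 was called (0.64, adjusted p = 0.0453). Beyond these settings the cause was not tested. Leaving out each library gave 0 to 1 for genotype in Dlx-lineage neurons, 1 to 3 for striatal neurons, 1 to 2 for Lhx6 interneurons and 3 to 5 for cycling Dlx progenitors.

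Counts over all genes moved more. Between genotypes they ranged, over the other settings and over leaving out a library, from 6 to 9 and 4 to 28 over all neural cells (8 as reported), 7 to 12 and 5 to 55 in excitatory neurons (11), 4 to 33 and 4 to 24 in Dlx-lineage neurons (10), and 0 to 4 and 0 to 6 for the difference between lineages (0). Genotype counts in single classes moved over the other settings as well. Examples are 2 to 20 in radial glia (5), 4 to 16 in Dlx neuroblasts (5) and 2 to 21 in Htr3a or Nr2f2 interneurons (11). Between classes the counts ranged over the other settings from 740 to 1531 for newborn neurons (1420) and 682 to 1627 for cycling pallial progenitors (1613). They were 1452 to 2593 for cycling Dlx progenitors (2551) and 2045 to 3921 for intermediate progenitors (3594). For striatal neurons they were 220 to 667 (496), and for Lhx6 interneurons 92 to 198 (177). No paired analysis was possible between genotypes, because the labels give no pairing of WT with Het fetuses. The library prefixes also carry no replicate numbers of the sample labels. The class comparisons had the library as a block. The depth limits Efna3, Efna5, Epha7 and Ephb1, which had 445 to 1009 UMIs in all neural cells, and their values in classes with few cells rest on few UMIs.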
